A study of Mus musculus with 24 samples.

Results

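The cytosolic ribosomal protein genes encode the proteins that, with the ribosomal RNAs, build the large (Rpl) and the small (Rps) subunit of the ribosomes that translate nuclear mRNAs. They were taken from the count tables by symbol, as every row named Rpl or Rps followed by a number and at most 1 of the letters a, l, x and y, together with Rplp0 to Rplp2 and Rpsa. The rule gave 83 of 55376 genes, of which 51 belong to the large and 32 to the small subunit. It leaves out some genes that also encode or carry ribosomal proteins, such as Rps3a1, Fau and Rack1. GENCODE annotates 80 of the 83 as protein-coding and Rps4l, Rpl32l and Rpl6l as processed pseudogenes, that is copies of a mature mRNA in the genome.

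The levels were measured by bulk mRNA-seq in 24 libraries of sorted mouse bone marrow cells. Hematopoietic stem cells (HSCs), from which all blood lineages derive, were sorted at an age of 4 to 5 months (young; 4 Y-WT and 4 Y-TTPΔARE libraries) or of 1 year (middle-aged; 5 M-WT and 3 M-TTPΔARE libraries). MPP3 cells, a multipotent progenitor with myeloid bias, were taken at the young age alone (4 libraries each of Y-WT and Y-TTPΔARE). The paper describes 1 Y-TTPΔARE MPP3 library fewer than were deposited and does not name the one left out. All mice were untreated males. TTPΔARE mice are homozygous for a germline deletion of the AU-rich element in the 3′ UTR of Zfp36, the gene of the mRNA-decay factor tristetraprolin (TTP), in every cell of the animal, and WT mice were their littermates. Whether a library came from 1 mouse or from several is not given in the sources used here, so that p-values measure the spread between these samples only.

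Ribosomal protein mRNAs are among the most abundant mRNAs of a cell, and most of their products are needed in equal numbers per ribosome. Most of them start with a C followed by a run of pyrimidines, the 5′ terminal oligopyrimidine (TOP) motif, through which mTORC1 and LARP1 control their translation and stability together. In blood formation, loss of 1 copy of any of several of these genes causes Diamond-Blackfan anaemia, and stem cells are known for a low rate of protein synthesis that rises in progenitors.

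Pyrimidine runs near the start were more frequent among these genes than among all genes. RefSeq (GRCm38.p6) start windows were at hand for 61 of the 83 genes. A run of at least 8 C or T on the sense strand lay within 50 bases of a start in 52 of the 61 genes (85.2%), against 39.3% of 27025 genes in all. Such a run covered the annotated start base itself, where a TOP motif lies, in 18 of the 61 (29.5%), against 4.59% of all genes. CCGGAAG, a core bound by ETS-family factors, was found on either strand of the 300-base windows in 25 of the 61 (41.0%), against 9.93% of all genes. Windows of 30 bases are given for the members that the results turn on, together with 4 genes chosen because their run reaches across the annotated start, with the pyrimidine run in capitals. The run spans the annotated start in Rps27, Rps10, Rps6, Rpl28, Rpl15 and Rpl27a and the run shown lies before it in Rps27l, Rpl13a and Rps18, of which Rps18 has another run that covers the start.
Rps27, minus strand, chr3:90213629-90213658: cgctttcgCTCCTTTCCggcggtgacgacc
Rps27l, plus strand, chr9:66946056-66946085: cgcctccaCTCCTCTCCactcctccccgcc
Rps10, minus strand, chr17:27635226-27635255: cgcgcacgCCCCTTCCTTTCCagcctccgc
Rpl13a, minus strand, chr7:45128767-45128796: ctgcgtcaCTTCCTCCgcccctgcagcaag
Rps18, minus strand, chr17:33955690-33955719: tagccccgCCTCTTCCgccaggaatctata
Rps6, minus strand, chr4:86857347-86857376: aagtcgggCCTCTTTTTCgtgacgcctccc
Rpl28, plus strand, chr7:4792954-4792983: ctctcgtgTCTCTCTTTCCgtctccggccg
Rpl15, minus strand, chr14:18270969-18270998: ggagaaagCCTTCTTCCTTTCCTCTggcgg
Rpl27a, plus strand, chr7:109519183-109519212: ttcgtgagCTCCTCCCTTTTCCCTTTCTgc

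Zfp36 followed the genotype labels in every set. It lay between 29.8 and 74.5 CPM in Y-WT HSCs against 83.4 to 115.0 in Y-TTPΔARE HSCs, between 44.9 and 65.8 in M-WT against 89.6 to 114.9 in M-TTPΔARE HSCs, and between 20.7 and 35.8 in Y-WT against 74.5 to 116.7 in Y-TTPΔARE MPP3 cells. CPM scale each gene's counts to the size of its library, here corrected by TMM factors over the 24 libraries. The summed level of 10 HSC markers lay between 2254 and 3954 CPM in the HSC libraries and between 1141 and 1781 CPM in the MPP3 libraries, and that of 10 MPP3 and myeloid progenitor markers between 290.5 and 525.8 CPM in HSCs and between 1815 and 3854 CPM in MPP3 cells. Libraries held between 24261371 and 39934554 counts. Libraries also differed in genes of other cell types, where the source of the reads was not tested: 7 B cell markers summed to between 347.9 and 4935 CPM, and receptor genes of the olfactory and vomeronasal systems, which have no known role in blood, to between 19.3 and 902.8 CPM. Cell type and age each coincide with a set of sample numbers in the titles, so that neither can be told apart from a difference between sets, whereas the genotypes were compared within a set.

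1 library stood apart for ribosomal protein genes before any comparison. The 83 genes took 5.87% of the counts of Y-TTPΔARE MPP3 replicate 4 and between 2.56% and 3.96% of those of the other 23 libraries. In Y-WT HSCs the share was 3.36%, 3.31%, 2.56% and 3.10% in replicates 1 to 4, and in Y-TTPΔARE HSCs 2.88%, 2.91%, 3.96% and 3.60%. In M-WT HSCs it was 3.03%, 3.24%, 3.47%, 3.17% and 3.07%, and in M-TTPΔARE HSCs 3.60%, 3.19% and 3.49%. In Y-WT MPP3 cells it was 2.78%, 3.49%, 2.84% and 2.63%, and in Y-TTPΔARE MPP3 cells 3.07%, 2.80%, 3.10% and 5.87%. The ranges of the genotypes overlapped in each of the 3 sets. The group means were 3.08 ± 0.37% (Y-WT HSC), 3.34 ± 0.53% (Y-TTPΔARE HSC), 3.20 ± 0.17% (M-WT HSC), 3.43 ± 0.21% (M-TTPΔARE HSC), 2.93 ± 0.38% (Y-WT MPP3) and 3.71 ± 1.44% (Y-TTPΔARE MPP3, 2.99 ± 0.16% without replicate 4, n = 3), each ± SD over the 3 to 5 libraries of its group.

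**Figure D1:**
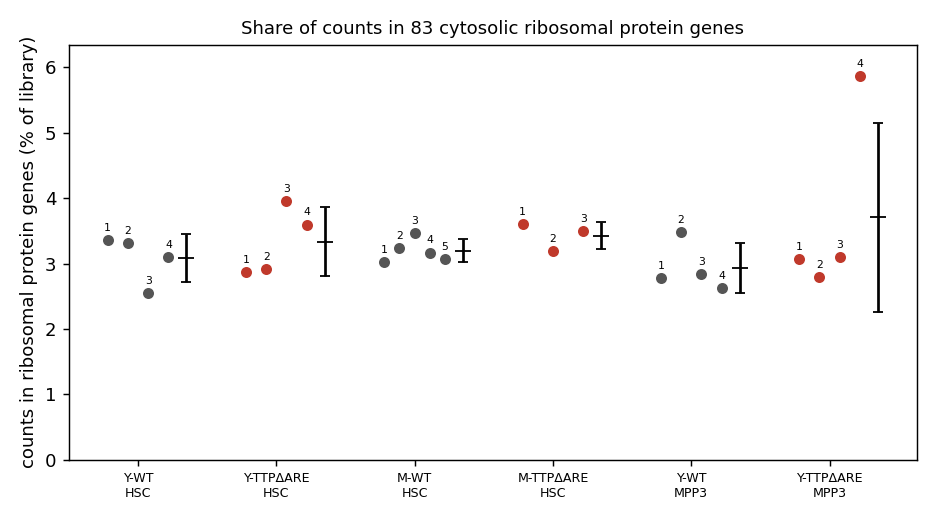
Percent of the counts of each library (y axis, from 0) that fell in the 83 ribosomal protein genes, by group (x axis). Grey points are WT and red points TTPΔARE libraries, numbered by replicate, with the mean ± SD beside them; Y-TTPΔARE MPP3 replicate 4 lies at 5.87% and the other 23 libraries between 2.56% and 3.96%.

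In that library 76 of the 76 ribosomal protein genes with a mean over 10 CPM were the highest of the 4 libraries of their group, with a median deviation of 0.92 from the group mean on the scale of log2(CPM + 1). Genes outside the set moved there by transcript length. The median deviation of other protein-coding genes was 0.69 for the 537 genes up to 1 kb, 0.39 for the 2076 genes of 1 to 2 kb, 0.00 for the 4173 genes of 2 to 4 kb and -0.22 for the 3144 genes over 4 kb. From the shortest to the longest class these medians rose from -0.25 to 0.14 in replicate 2 of the group and from -0.35 to -0.04 in replicate 3. Replicate 4 is itself part of the group mean from which these deviate. The median transcript length was 857 bases for the 76 ribosomal protein genes and 2984 bases for the others, and the part of length in the high level of the set was not tested. Markers of MPP3 cells summed to 3700 CPM in replicate 4, inside the range of its group (2446 to 3854), and B cell markers to 933.4 CPM (469.2 to 4315). T and NK cell markers summed to 514.2 CPM, the highest of its group (196.9 to 514.2), against at most 312.1 CPM in Y-WT MPP3 cells. Their part in the high level of the set was not tested in this library. Values without it are given beside the MPP3 results of TTPΔARE cells where it moved them by more than 1.5 times or changed a call.

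**Figure D2:**
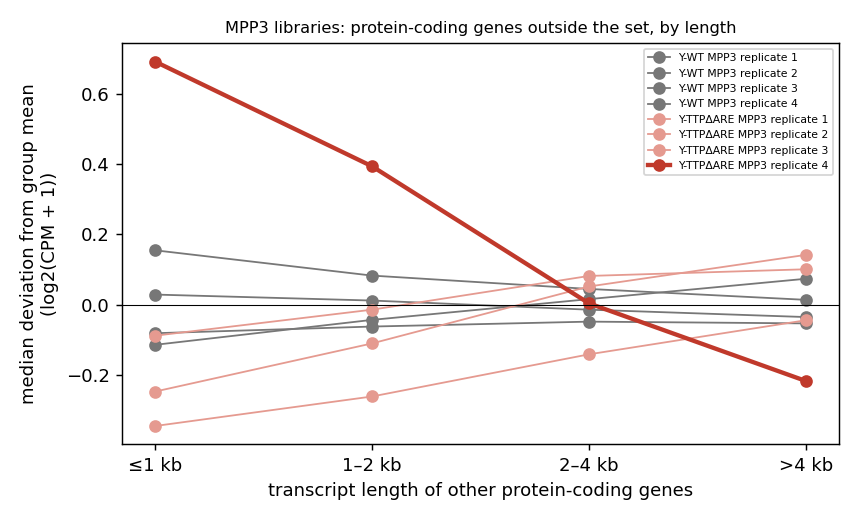
Median deviation from the group mean, in log2(CPM + 1) (y axis), of protein-coding genes outside the set in 4 classes of transcript length (x axis), with a line for each MPP3 library. Y-TTPΔARE MPP3 replicate 4 (thick red line) falls from 0.69 for genes up to 1 kb to -0.22 for genes over 4 kb, and the other 7 libraries stay between -0.35 and 0.16.

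Ribosomal protein mRNAs moved as a block between libraries of the same group. For the 76 genes over 10 CPM the first component of the deviations from the group means held 96.0% of their variance over 24 libraries and 89.5% over the 23 without Y-TTPΔARE MPP3 replicate 4, against 18.4% and 16.9% for all 10814 genes over 10 CPM. The median gene had a within-group SD of 0.32 log2 units, and of 0.05 once the median of the set in each library was subtracted. In Y-WT HSCs replicate 1 was the highest library for 76 of the 76 genes (median deviation 0.39) and replicate 3 the lowest for 74 (-0.34). Protein-coding genes outside the set moved the same way in these 2 libraries. Their median deviation ran from 0.35 (up to 1 kb) to 0.17 (over 4 kb) in replicate 1. In replicate 3 it ran from -0.23 to -0.07. Receptor genes summed to 66.0 CPM in replicate 1 and to 902.8 CPM in replicate 3, and their part in these deviations was not tested. How far Y-WT HSC replicate 1 led depended on the scaling. With TMM factors the set summed to 34930 CPM there and to 26460 CPM in replicate 2. With RLE factors these sums were 32890 and 30750 CPM, and the shares of counts were 3.36% and 3.31%. In Y-WT MPP3 cells replicate 2 was highest for 76 of the 76 genes (0.31), and in Y-TTPΔARE HSCs replicate 3 for 75 (0.22). Rps4l, with an SD of 0.38 after subtraction, and Rpl13a, with 0.16, followed the block least, whereas the third in that order, Rpl3, had 0.10.

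**Figure D3:**
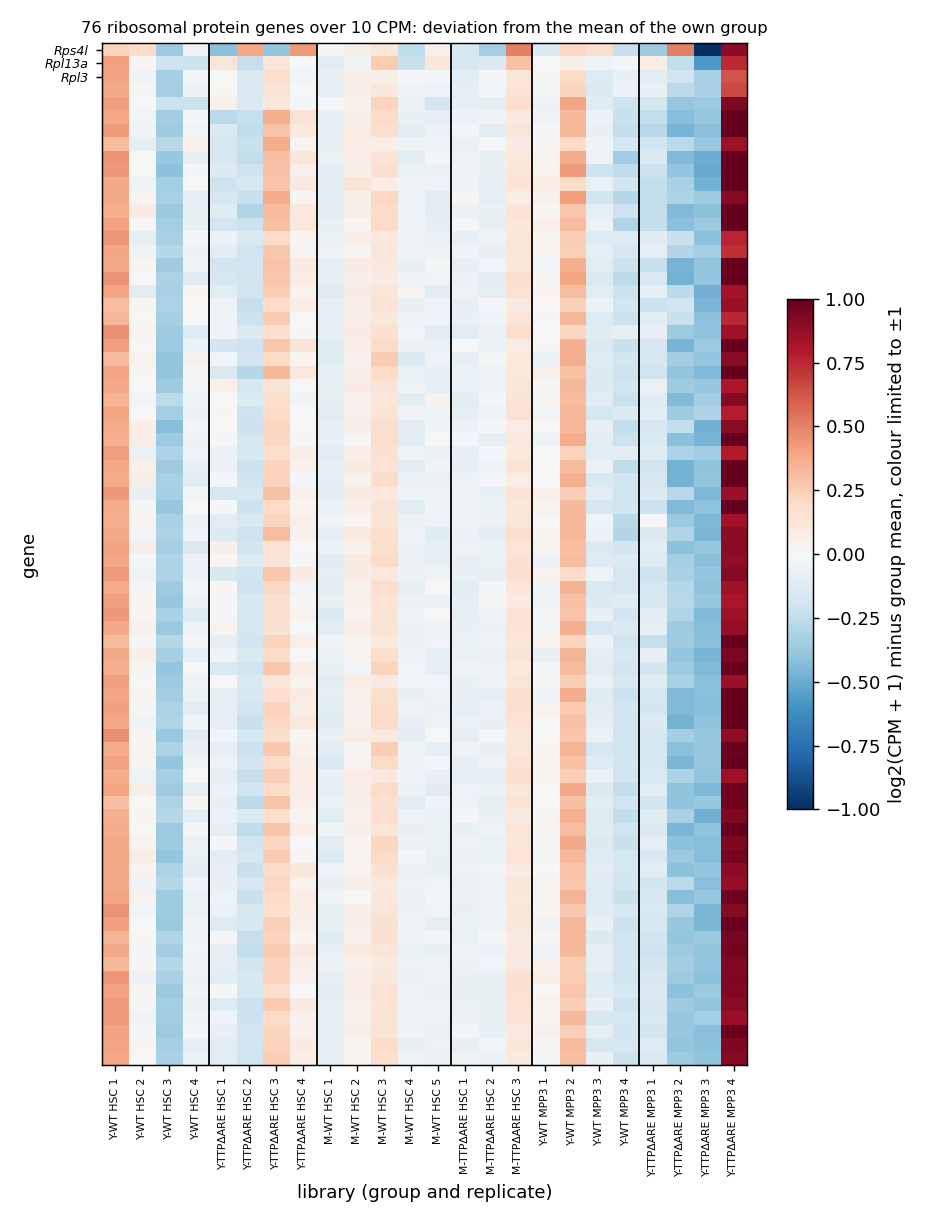
Deviation of log2(CPM + 1) from the mean of the own group (colour, limited to ±1) for 76 ribosomal protein genes over 10 CPM (y axis, from the gene that followed the block least at the top, with the first 3 named) in the 24 libraries (x axis, black lines between groups). Columns are nearly uniform, with Y-WT HSC replicate 1 high, Y-WT HSC replicate 3 low and Y-TTPΔARE MPP3 replicate 4 highest, and the row of Rps4l at the top differs from the others.

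Per kilobase of transcript, the median of the 76 genes in Y-WT HSCs was 368.8 CPM, with quartiles of 249.7 and 574.5. The highest were Rps27 with 1426 ± 296 CPM per kb, Rpl13 with 1129 ± 261, Rps18 with 1113 ± 222, Rps14 with 1110 ± 258 and Rps19, the gene most often mutated in Diamond-Blackfan anaemia, with 1002 ± 205 (SD, n = 4). The SDs of neighbours in this order overlapped. The ratio of the summed counts of the large to those of the small subunit lay between 1.35 and 1.39 in the HSC libraries and between 1.28 and 1.37 in the MPP3 libraries, and it was lowest in Y-TTPΔARE MPP3 replicate 4 (1.28).

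Members with a tissue-restricted or retrotransposed copy had levels far below the gene they resemble. Rpl3l, the striated muscle paralog of Rpl3, had 0.15 CPM per kb against 704.2 for Rpl3 in Y-WT HSCs, and Rpl39l, known from testis, had 0.39 against 268.4 for Rpl39. Rpl10l, a testis paralog of Rpl10, had 15 counts in all 24 libraries together, where Rpl10 had 337.2 CPM per kb in Y-WT HSCs. The pseudogene Rps4l (GRCm38 chr6:148354656-148355598, plus strand) had 16.5 ± 3.1 CPM per kb against 474.6 ± 100.6 for Rps4x, the X-linked gene it resembles (SD, n = 4). Only 1.7% of the 100-base words of the Rps4l transcript occur in another gene, so that few reads of that length could be shared. Rps27l, a paralog of Rps27 that is known as a target of p53, was a well-expressed member with 255.1 ± 56.3 CPM per kb.

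Rpl24, Rps10 and Rpl13a were low for genes whose proteins sit in every ribosome, with 10.6 ± 1.2, 8.67 ± 1.33 and 11.8 ± 2.8 CPM per kb in Y-WT HSCs (SD, n = 4). They are the 3 members with over 20% of their exonic bases (47.0%, 20.6% and 35.4%) inside another annotated gene on the same strand, the read-through genes Gm28037, RPS10-NUDT3 and Gm45713. Gm28037 and Gm45713 had 0 counts in the 24 libraries. Their levels are therefore uncertain, as are those of genes with near-identical copies: the median member shared 36.0% of its 100-base words with another gene, and 33 of 83 shared over 50%, among them Rps27 with 98.4%.

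The comparison of TTPΔARE with WT asked whether raised TTP changes the transcripts of stem and progenitor cells. Of the 83 genes, 78 passed the logCPM limit of 1.5 in each comparison. In young HSCs 0 of the 78 were called, where a call is an adjusted p under 0.05 in edgeR's quasi-likelihood test, a fold change over 1.2 and a logCPM over the limit. Over all genes tested, 0.0218% of genes over the limit were called higher (3 genes) and 0.0218% lower (3 genes). The paper reports far more changed genes between these groups with edgeR at the same limits, most of them lower in TTPΔARE. At an unadjusted p under 0.05 there was 1 member, Rpl13a, and DESeq2 called 0. For counts of these 2 kinds, here and below, no share of all genes is given, so that they have no baseline. The log2 fold changes of 76 of the 78 were above 0, with a median of 0.13, against 0.03 over all genes. Rpl13a was at 16.5, 12.2, 10.4 and 10.3 CPM in Y-WT HSCs and at 18.6, 14.4, 18.6 and 17.0 CPM in Y-TTPΔARE HSCs, so that the genotypes overlapped, as they did for each of the 78 (3.96% of all genes over the limit were higher and 1.23% lower without overlap), and its log2 fold change was 0.38 ± 0.14 (SE, edgeR adjusted p = 0.520). Rplp1, a protein of the ribosomal stalk, had 0.22 ± 0.15 (edgeR adjusted p = 0.717). The lowest values were those of Rps4l with -0.20 ± 0.24 (edgeR adjusted p = 0.772) and Rps10 with -0.16 ± 0.17 (edgeR adjusted p = 0.751).

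In middle-aged HSCs 0 of the 78 ribosomal protein genes were called, where 1.1% of all genes over the limit were called higher and 1.12% lower. The median log2 fold change of the set was 0.06, against -0.03 over all genes. Of the 78, 10 had an unadjusted p under 0.05, for which no share of all genes is given, and the members moved together. Rps4l came closest to a call and was the 1 member that DESeq2 called (log2 fold change -0.77, DESeq2 adjusted p = 0.00121). The paper lists Rps4l among the age-associated genes with a significant difference between the genotypes in middle-aged HSCs, also lower in TTPΔARE. It was at 16.6, 17.1, 17.8, 13.6 and 17.0 CPM in M-WT and at 8.03, 7.00 and 13.4 CPM in M-TTPΔARE HSCs. The groups did not overlap, although M-TTPΔARE replicate 3 came close to M-WT replicate 4, the lowest M-WT library. The log2 fold change was -0.77 ± 0.18 (SE, edgeR adjusted p = 0.0588), over the settings tried its adjusted p ranged from 4.76e-04 to 0.229, and without M-TTPΔARE replicate 3 it was -1.08 (edgeR adjusted p = 0.0269). No other member had groups that did not overlap, while 7.57% of all genes over the limit were lower and 2.83% higher without overlap. On the upper side Rpl23a had 0.19 ± 0.06 (edgeR adjusted p = 0.157) and Rpl36 0.16 ± 0.07 (0.274), and Rps27l had -0.09 ± 0.09 (0.650).

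In MPP3 cells 0 of the 78 were called in TTPΔARE against WT, where 2.33% of all genes over the limit were called higher and 0.202% lower, and the unadjusted p was under 0.05 for 1 of them, Rpl13a. DESeq2 called 0. The log2 fold change of 78 of the 78 was above 0, with a median of 0.42 against 0.00 over all genes. Without Y-TTPΔARE MPP3 replicate 4 it was above 0 for 60 of the 78, with a median of 0.03 against -0.02 over all genes, and 0 were called. Rpl13a was at 16.0, 16.6, 15.4 and 15.8 CPM in Y-WT and at 25.3, 19.9, 15.7 and 40.8 CPM in Y-TTPΔARE MPP3 cells. Replicate 3 lay inside the WT range and replicate 4 was the highest. Its log2 fold change was 0.63 ± 0.22 (edgeR adjusted p = 0.271), and 0.35 without replicate 4. The genotypes overlapped in CPM for each of the 78, where 5.23% of all genes over the limit were higher and 5.23% lower without overlap. Sums of several marker lists did not overlap between the genotypes. Markers of the sort gate (6 genes) lay between 1722 and 1845 CPM in Y-WT and between 1931 and 2123 CPM in Y-TTPΔARE HSCs. In MPP3 cells they lay between 3522 and 3880 CPM in WT and between 3133 and 3469 CPM in TTPΔARE, and in middle-aged HSCs they overlapped. Erythroid markers (8 genes) lay between 41.9 and 53.3 CPM in Y-WT and between 122.3 and 405.6 CPM in Y-TTPΔARE HSCs, and between 13.7 and 31.9 CPM against 54.1 to 180.0 CPM in MPP3 cells. T and NK cell markers (5 genes) lay between 45.7 and 55.5 CPM in Y-WT and between 73.9 and 141.4 CPM in Y-TTPΔARE HSCs. In MPP3 cells megakaryocyte markers (5 genes) lay between 140.5 and 162.1 CPM in WT and between 85.3 and 100.6 CPM in TTPΔARE, and endothelial markers (5 genes) between 140.2 and 168.4 against 116.6 to 133.7 CPM. In middle-aged HSCs megakaryocyte markers lay between 582.5 and 683.3 CPM in WT and between 415.4 and 512.8 CPM in TTPΔARE, MPP3 and myeloid progenitor markers between 420.3 and 525.8 against 290.5 to 338.7 CPM, and mature neutrophil markers (5 genes) between 6.16 and 15.0 against 3.41 to 4.00 CPM. Their part in the levels of ribosomal protein genes was not tested. Rpl10 had 0.52 ± 0.25 (edgeR adjusted p = 0.452), Rps27l 0.46 ± 0.26 (0.515), Rps4l 0.21 ± 0.36 (0.856) and Rps10 0.11 ± 0.14 (0.789). Without replicate 4 these were 0.16 for Rpl10, 0.09 for Rps27l, -0.12 for Rps4l and 0.08 for Rps10.

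**Figure D4:**
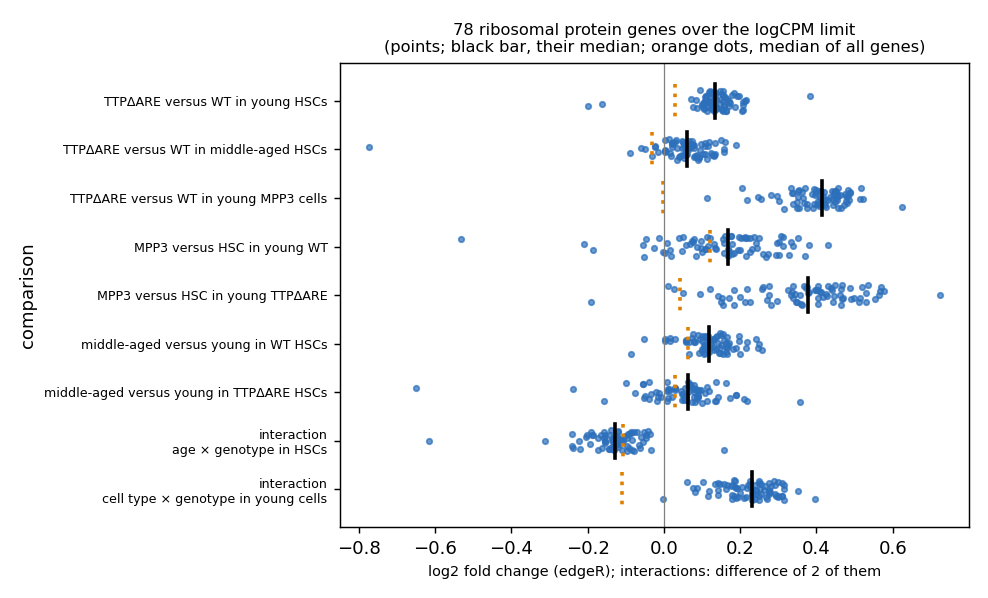
Log2 fold changes of the 78 ribosomal protein genes over the logCPM limit (points, x axis) in 7 comparisons and 2 interactions (y axis), with their median (black bar) and the median of all genes over the limit (dotted orange bar). The clouds are narrow, and their median lies farthest above that of all genes where Y-TTPΔARE MPP3 replicate 4 takes part (0.42 against 0.00 for the genotypes in MPP3 cells). Rps4l lies at -0.77 in middle-aged HSCs and at -0.53 between MPP3 cells and HSCs of WT mice.

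Whether the genotype effect differed between ages or cell types was tested as an interaction. For age, 0 of the 78 were called (0.0366% of all genes over the limit lower, 0.00732% higher), 0 had an unadjusted p under 0.05, DESeq2 called 0, and the median interaction was -0.13 against -0.11 over all genes. Rps4l had -0.62 ± 0.33 (edgeR adjusted p = 0.366), Rpl13a -0.31 ± 0.21 (0.448), Rps25 -0.03 ± 0.15 (0.919) and Rps10 0.16 ± 0.20 (0.676). For cell type, 0 were called (0.75% of all genes higher, 0.0891% lower), 0 had an unadjusted p under 0.05 and DESeq2 called 0. The median was 0.23 against -0.11 over all genes, and -0.20 against -0.15 without Y-TTPΔARE MPP3 replicate 4, so that its sign rested on that library. Rps12 had 0.40 ± 0.44 (edgeR adjusted p = 0.838), Rps4l 0.35 ± 0.50 (0.870), Rpl4 0.06 ± 0.28 (0.958) and Rpl3 -0.00 ± 0.27 (0.997). Without that library the log2 values were -0.16 for Rps12, -0.00 for Rps4l, -0.21 for Rpl4 and -0.25 for Rpl3.

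MPP3 cells divide more often than HSCs, and the comparison of the cell types within a genotype asked whether the mRNAs of the ribosome rise with them. In WT mice 0 of the 78 were called higher and 1 lower, whereas 24.7% of all genes over the limit were called higher and 13.1% lower, and 6 of the 78 had an unadjusted p under 0.05. In such bulk samples fewer cells of a type and less RNA per cell cannot be told apart. The median log2 fold change of the set was 0.17 against 0.12 over all genes with TMM factors and -0.05 against -0.10 with library totals. Its sign thus depended on the scaling, and it lay 0.05 above the median of all genes with both. With a library left out this difference also changed sign. It ran from -0.05 (without Y-WT MPP3 replicate 2) to 0.12 (without Y-WT MPP3 replicate 4). The gene called lower was Rps4l, with 18.1, 17.5, 11.7 and 14.8 CPM in Y-WT HSCs and 9.93, 12.8, 12.5 and 9.24 CPM in Y-WT MPP3 cells. Replicate 3 of the HSCs lay within the MPP3 range. The log2 fold change was -0.53 ± 0.16 (edgeR adjusted p = 0.0398), while the adjusted p ranged from 0.0062 to 0.109 over the settings tried, and the call was lost without replicate 1, 2 or 4 of either the Y-WT HSCs or the Y-WT MPP3 cells (edgeR adjusted p from 0.0664 to 0.109).

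Single libraries also moved the other members. Without Y-WT HSC replicate 1, the library highest in the set, 14 of the 78 were called higher, among them Rps27l (0.61 ± 0.15, edgeR adjusted p = 0.0166), Rps16 (0.54 ± 0.15, 0.0287) and Rpsa (0.52 ± 0.14, 0.0233), beside 37.9% of all genes over the limit, and 0 were called lower. Without Y-WT MPP3 replicate 4, 8 were called higher, beside 28.4% of all genes. With all 8 libraries Rps27l had 0.43 ± 0.17 (edgeR adjusted p = 0.0909) and Rps16 0.38 ± 0.16 (0.117). DESeq2 called 2 members higher, Rps27l (0.39, DESeq2 adjusted p = 0.0314) and Rpsa (0.33, 0.0312). No share of all genes called by DESeq2 is given, so that these 2 calls have no baseline. Rps10 was the 1 member whose cell types did not overlap in CPM, higher in MPP3 cells, as for 25.6% of all genes over the limit, and 0 were lower without overlap (12.1% of all genes). On the lower side Rps27 had -0.21 ± 0.14 (edgeR adjusted p = 0.288).

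In TTPΔARE mice 0 of the 78 were called between MPP3 cells and HSCs, where 14.6% of all genes over the limit were called higher and 11.6% lower, and 3 had an unadjusted p under 0.05. The median was 0.38 against 0.04 over all genes, and 0.02 against 0.05 without Y-TTPΔARE MPP3 replicate 4. Rps27l was at 151.3, 132.2, 157.6 and 143.7 CPM in Y-TTPΔARE HSCs and at 204.1, 178.0, 180.3 and 445.2 CPM in Y-TTPΔARE MPP3 cells. The cell types did not overlap, nor did they for Rps10, as for 17.6% of all genes over the limit that were higher, and 0 members were lower without overlap (13.4% of all genes). Without replicate 4 the same 2 were higher without overlap (21.4% of all genes) and Rps27 lower (18.2%). The log2 fold change was 0.72 ± 0.25 (edgeR adjusted p = 0.0695), and without replicate 4 it was smaller but called, at 0.37 ± 0.10 (edgeR adjusted p = 0.0265). DESeq2 called it (0.75, DESeq2 adjusted p = 0.0173) and Rps10 (0.46, 0.0318), again with no share of all genes given. Rpl28 had 0.58 ± 0.27 (edgeR adjusted p = 0.187), Rps27 0.01 ± 0.29 (0.991) and Rps4l -0.19 ± 0.40 (0.837), and without replicate 4 Rpl28 had 0.20 and Rps4l -0.48. The log2 fold change of Rps27 was negative with library totals (-0.16), with the replicate block (-0.09) and without replicate 4 (-0.41).

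**Figure D5:**
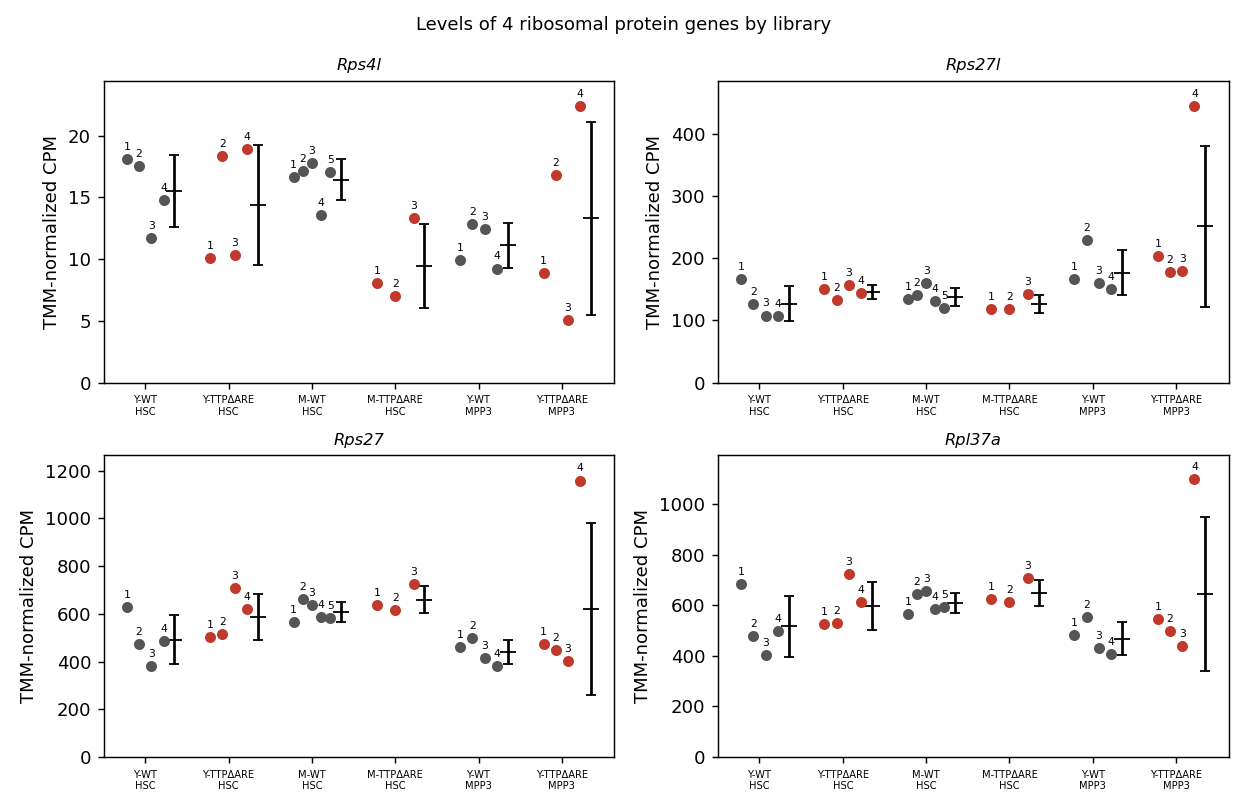
TMM-normalized CPM (y axes, from 0) of Rps4l, Rps27l, Rps27 and Rpl37a in each library by group (x axes), WT in grey and TTPΔARE in red, numbered by replicate, with the mean ± SD. Rps4l is at 7.00 to 13.4 CPM in M-TTPΔARE and at 13.6 to 17.8 CPM in M-WT HSCs, and Rps27l is at 151.1 to 445.2 CPM in MPP3 cells and at 107.9 to 167.5 CPM in HSCs.

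Because the set moved as a block, each library was also scaled by the summed counts of the 83 genes, which asks which members change relative to the rest. In WT mice 3 members were then called lower in MPP3 cells than in HSCs, beside 12.4% of all genes over the limit, and 0 higher, beside 10.6%. Rps27, whose protein lies in the small subunit, was at 629.1, 471.8, 382.6 and 484.5 CPM in Y-WT HSCs and at 461.1, 497.4, 416.1 and 382.1 CPM in Y-WT MPP3 cells, and these ranges overlapped. Relative to the set it fell by 0.34 on the log2 scale (SE 0.07, edgeR adjusted p = 0.00771). Rpl37a, of the large subunit, was at 686.5, 479.3, 403.4 and 497.2 CPM against 482.5, 552.8, 431.1 and 405.8 CPM and fell by 0.32 (SE 0.06, edgeR adjusted p = 0.00762), and Rps4l fell by 0.67 (SE 0.15, edgeR adjusted p = 0.0143). Of Rps27, 98.4% of the 100-base words occur in another gene, and of Rpl37a 21.4%. In TTPΔARE mice edgeR called 0 members on this scale with all 8 libraries (4.19% of all genes over the limit were called higher and 5.52% lower), 2 had an unadjusted p under 0.05, and Rps27 had -0.33 ± 0.14 (edgeR adjusted p = 0.262). Without Y-TTPΔARE MPP3 replicate 4 Rps27 was called, with -0.38 ± 0.10 (edgeR adjusted p = 0.0358). Members were also compared by their level relative to the median of the set in each library. Both scalings take the shared spread out of the members, whose median within-group SD was 0.32 before and 0.05 after the median was subtracted. The shares of all genes are therefore no like baseline on either scale. The Y-WT cell types did not overlap for 15 members that were higher and 21 that were lower in MPP3 cells (12.4% and 17.3% of all genes over the limit). For the Y-TTPΔARE cell types it was 10 and 17 (4.77% and 14.7%), or 11 and 19 without replicate 4 (17.4% and 14.8%). Among those lower in both were Rps27, Rpl37a, Rpl7, Rpl11 and Rps18, and among those higher in both Rps27l, Rps16, Rpl28 and Rpsa, genes chosen here after their values were seen.

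On the same scale the comparison of genotypes in middle-aged HSCs called 1 member, Rps4l, which fell by 0.86 (SE 0.17, edgeR adjusted p = 0.0409) beside 1.52% of all genes over the limit that were called lower, and 0 higher (0.402%). Relative to the median of the set, 16 members were higher without overlap in M-TTPΔARE HSCs and 2 lower. The shares of all genes were 2.67% and 9.42%, which are no like baseline on this scale. Rpl11, Rpl23a, Rpl36, Rps3 and Rps25 were among the 16, and Rps4l and Rpl41 were the 2. In the remaining comparisons edgeR called 0 members on the scale of the summed set, and DESeq2 was not run on it. Between the genotypes 0 had an unadjusted p under 0.05 in young HSCs (0.00723% of all genes over the limit called higher and 0.0289% lower) and 0 in MPP3 cells (0.621% and 0.0155%). Between the ages it was 9 in WT (3.39% and 9.05%) and 2 in TTPΔARE mice (1.74% and 3.31%). In the interactions it was 0 with age (0.0% and 0.0%) and 0 with cell type (0.281% and 0.0%).

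The shares of all genes are no like baseline for levels relative to the median of the set. On that scale 0 members were separated between the genotypes in young HSCs (0.232% of all genes over the limit were higher and 4.87% lower). In MPP3 cells 0 were higher (1.35%) and 8 lower in TTPΔARE (7.27%), among them Rps6 and Rpsa, and without Y-TTPΔARE MPP3 replicate 4 it was 2 (4.42%) and 14 (7.39%). Between the ages 4 were higher (2.83%) and 7 lower (14.2%) in middle-aged WT HSCs, and 11 higher (7.39%) and 8 lower (10.5%) in those of TTPΔARE mice. Rps3 and Rpl13 were among the higher in both, and Rps24 among the lower. These names were chosen after their values were seen.

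The comparison of ages asked whether the mRNAs of the ribosome change in HSCs between 4 to 5 months and 1 year. In WT mice 0 of the 78 were called, where 13.7% of all genes over the limit were called higher and 6.03% lower in middle-aged HSCs, DESeq2 called 0, and 10 of the 78 had an unadjusted p under 0.05. The median log2 fold change was 0.12 against 0.06 over all genes. Rps3, which lines the mRNA entry channel, was at 703.9, 789.6, 810.1, 722.4 and 725.9 CPM in M-WT and at 700.4, 558.0, 442.5 and 556.2 CPM in Y-WT HSCs. The ages did not overlap, as for 23.9% of all genes over the limit that were higher (2.73% were lower), but Y-WT replicate 1 came close to the M-WT range. Its log2 fold change of 0.25 ± 0.07 and that of Rps18, 0.22 ± 0.07, passed the adjusted p (0.0331 and 0.0458, edgeR) but not the fold limit. CPM used TMM factors over 24 libraries and the fit those of its own groups. The mean CPM of Rps3 (750.4 in M-WT and 564.3 in Y-WT HSCs) therefore lay further apart than its fold change in the fit. The shares without overlap belong to the CPM scale and the shares called to that of the fit. Rps21 had 0.26 ± 0.10 (edgeR adjusted p = 0.0823), Rplp1 0.25 ± 0.10 (0.0900), Rps27l -0.05 ± 0.10 (0.741) and Rps4l -0.09 ± 0.12 (0.624). Without Y-WT HSC replicate 1, 16 of the 78 were called higher, beside 20.2% of all genes over the limit, with Rps21 at 0.38 ± 0.09 (edgeR adjusted p = 0.00702), Rplp1 at 0.37 ± 0.09 (0.00973) and Rpl13 at 0.36 ± 0.06 (0.00251). Receptor genes summed to between 66.0 and 902.8 CPM in Y-WT and to between 42.6 and 216.5 CPM in M-WT HSCs, and their part in this result was not tested.

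In TTPΔARE HSCs 0 of the 78 were called between the ages, where 8.58% of all genes over the limit were called higher and 5.59% lower, DESeq2 called 0, and 4 of the 78 had an unadjusted p under 0.05. The median was 0.06 against 0.03 over all genes. Rps10 had 0.36 ± 0.15 (edgeR adjusted p = 0.185), Rps21 0.22 ± 0.13 (0.396), Rps27l -0.24 ± 0.09 (0.121) and Rps4l -0.65 ± 0.29 (0.220). Rps10 did not overlap between the ages, as for 15.6% of all genes over the limit that were higher (7.48% were lower). Rps4l was at 10.1, 18.4, 10.3 and 18.9 CPM in Y-TTPΔARE HSCs. Replicates 1 and 3 were low and replicates 2 and 4 high, and the middle-aged libraries overlapped the low ones.

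With all libraries, the 14 Diamond-Blackfan anaemia genes of the set (among them Rps19, Rpl5, Rpl11, Rps24, Rps26, Rps10 and Rps27) had 0 of 14 called by edgeR in each of the 7 comparisons and both interactions. Between 0 and 2 of the 14 had an unadjusted p under 0.05, and DESeq2 called 1, Rps10 between the cell types in TTPΔARE mice. Their median log2 fold change for TTPΔARE against WT was 0.13 in young HSCs, 0.04 in middle-aged HSCs and 0.43 in MPP3 cells (0.02 without Y-TTPΔARE MPP3 replicate 4). Between MPP3 cells and HSCs it was 0.17 in WT and 0.41 in TTPΔARE mice (0.02 without that library). Rps19 was at 989.3, 739.2, 607.7 and 765.7 CPM in Y-WT HSCs and at 866.2, 1009, 811.0 and 740.9 CPM in Y-WT MPP3 cells, and these ranges overlapped. Without Y-WT HSC replicate 1, 2 of the 14 were called higher between the cell types in WT (37.9% of all genes). Without the same library 1 was called higher between the ages in WT (20.2%).

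The genes that assemble ribosomes were compared with those of the ribosome itself between the cell types. Of 40 ribosome biogenesis genes over the limit in WT mice, 26 were called higher in MPP3 cells than in HSCs and 0 lower, against 24.7% and 13.1% of all genes, with a median log2 fold change of 0.47 against 0.17 for the ribosomal protein genes. The difference between these medians was not tested. The largest changes were those of Rrp12 (0.90 ± 0.17, 31.2 ± 4.0 CPM in HSCs and 60.4 ± 14.2 CPM in MPP3 cells, edgeR adjusted p = 0.00482), Heatr1 (0.81 ± 0.14, 0.00225) and Utp20 (0.73 ± 0.15, 0.00704), which act in processing of pre-ribosomal RNA. The count was 12 with library totals, for which no share of all genes is given. Without Y-WT MPP3 replicate 2 it was 14 (17.4% of all genes), the lowest with a library left out. Without Y-WT HSC replicate 1 it was 36 (37.9%), the highest. In TTPΔARE mice 6 of the 40 were called higher, where 14.6% of all genes were. The count was 11 without Y-TTPΔARE MPP3 replicate 4 (17.1% of all genes) and 0 without Y-TTPΔARE MPP3 replicate 1 (8.87%). The 6 included Nhp2 (0.81 ± 0.21, edgeR adjusted p = 0.0218, and 0.56 without replicate 4), Mrto4 (0.61 ± 0.17, 0.0357, not called without replicate 4) and Gnl3 (0.54 ± 0.11, 0.00624). Of 14 genes of RNA polymerase I and its factors, 4 were called higher in WT MPP3 cells, beside 24.7% of all genes, with Taf1d (0.50 ± 0.12, edgeR adjusted p = 0.0126), Polr1b (0.39 ± 0.10, 0.0236) and Polr1a (0.37 ± 0.10, 0.0217) among them. The count was 0 without Y-WT MPP3 replicate 2 (17.4% of all genes) and 8 without Y-WT HSC replicate 1 (37.9%). In TTPΔARE mice 2 were called (14.6% of all genes), Taf1d (0.45 ± 0.14, 0.0492) and Polr1e (0.39 ± 0.11, 0.0310), and each call was lost when any 1 of the 8 libraries other than Y-TTPΔARE MPP3 replicate 3 was left out.

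Of 77 mitochondrial ribosomal protein genes over the limit, 14 were called higher in MPP3 cells in each genotype, beside 24.7% of all genes in WT and 14.6% in TTPΔARE mice, with Mrpl18 at 0.71 ± 0.13 (edgeR adjusted p = 0.00368) in WT and Mrpl12 at 0.87 ± 0.20 (0.0129, and 0.65 without Y-TTPΔARE MPP3 replicate 4) in TTPΔARE mice. In WT the count fell to 1 without Y-WT HSC replicate 3 (18.7% of all genes) and rose to 55 without Y-WT HSC replicate 1 (37.9%). In TTPΔARE it was 0 without Y-TTPΔARE HSC replicate 1 (9.28% of all genes). It was 25 without Y-TTPΔARE MPP3 replicate 3 (14.8%) and 13 without Y-TTPΔARE MPP3 replicate 4 (17.1%). Of 20 other mRNAs with a TOP motif, mostly translation factors, 3 were called higher in MPP3 cells in each genotype (24.7% and 14.6% of all genes): Hnrnpa1 (0.68 ± 0.16, edgeR adjusted p = 0.0114), Eif3l (0.48 ± 0.12, 0.0168) and Eif4b (0.36 ± 0.11, 0.0346) in WT, and Snhg1 (0.68 ± 0.20, 0.0369), Hnrnpa1 (0.65 ± 0.16, 0.0182) and Eif3l (0.45 ± 0.11, 0.0145) in TTPΔARE. The count in WT lay between 1 (without Y-WT MPP3 replicate 2, 17.4% of all genes) and 13 (without Y-WT HSC replicate 1, 37.9%). In TTPΔARE it was 0 without Y-TTPΔARE HSC replicate 1 (9.28%) and 3 without Y-TTPΔARE MPP3 replicate 4 (17.1%), where Snhg1 had 0.45. Of 7 related genes that the rule leaves out, edgeR called 0 in any comparison, with an unadjusted p under 0.05 for at most 2, and DESeq2 called 1, between the cell types in WT.

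Among 20 genes that act on TOP mRNAs through mTORC1 or on their transcription through Myc, 7 were called higher and 1 lower in MPP3 cells of WT mice (24.7% and 13.1% of all genes). Rptor, the scaffold of mTORC1, rose (0.99 ± 0.11, edgeR adjusted p = 2.92e-04), as did Myc (0.76 ± 0.13, 0.00212) and Mtor (0.74 ± 0.15, 0.00569), and Mycn fell (-1.32 ± 0.24, 0.00344). In TTPΔARE mice Mycn (-1.67 ± 0.18, edgeR adjusted p = 1.39e-04) and Sesn1 (-0.50 ± 0.11, 0.00758) were called lower, with and without any 1 library (11.6% of all genes). Myc was called higher (0.43 ± 0.13, edgeR adjusted p = 0.0408; 14.6% of all genes), a call that was lost when any 1 of the 8 libraries other than Y-TTPΔARE HSC replicate 4 was left out. Of 10 genes of the p53 response to ribosomal stress, Cdkn1a, the cell cycle inhibitor p21, was called higher in TTPΔARE against WT MPP3 cells (1.06 ± 0.22, edgeR adjusted p = 0.0417, 17.6 ± 4.3 against 8.39 ± 2.06 CPM; 2.33% of all genes). It had 1.12 without Y-TTPΔARE MPP3 replicate 4 (edgeR adjusted p = 0.0472), and the call was lost when any of the other 7 libraries was left out. It was also called higher in MPP3 cells than in HSCs in both genotypes (0.76 ± 0.22, adjusted p = 0.0320 by edgeR, in WT, and 1.42 ± 0.21, 0.00110, in TTPΔARE), as was Trp53 in WT (0.46 ± 0.11, 0.0166). In WT the call of Cdkn1a was lost without replicate 2 or 3 of the Y-WT HSCs or of the Y-WT MPP3 cells, and that of Trp53 without Y-WT MPP3 replicate 2, and in TTPΔARE mice the call of Cdkn1a was kept without any 1 library.

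In middle-aged HSCs of TTPΔARE against WT mice 2 of the 40 ribosome biogenesis genes were called lower, Utp20 (-0.49 ± 0.11, edgeR adjusted p = 0.0478) and Heatr1 (-0.43 ± 0.05, 0.00276), and Sesn1 was called higher (0.34 ± 0.07, 0.0284), where 1.12% of all genes were called lower and 1.1% higher. The call of Heatr1 was kept without any 1 library. That of Utp20 was lost without any 1 of the 8 libraries other than M-WT replicate 2, and that of Sesn1 without M-TTPΔARE replicate 1, 2 or 3 or M-WT replicate 5. Between the ages in WT, leaving out M-WT replicate 4 gave the fewest called higher, 2 of the 40 (12.4% of all genes). Leaving out Y-WT replicate 1 gave the most, 7 (20.2%). With all libraries 4 were called higher, beside 13.7% of all genes. They included Utp20 (0.58 ± 0.10, edgeR adjusted p = 0.00425), Heatr1 (0.52 ± 0.08, 0.00156) and Rrp12 (0.39 ± 0.12, 0.0466), of which Rrp12 lost the call without any 1 of the 5 M-WT libraries or of Y-WT replicates 2 and 4. In TTPΔARE mice edgeR called 0 of the 40 higher and 0 lower, 7 had an unadjusted p under 0.05, and DESeq2 called 3 lower. Eef2, an elongation factor with a TOP motif, was called higher in middle-aged HSCs of both genotypes (0.40 ± 0.06, edgeR adjusted p = 0.00167, in WT and 0.40 ± 0.07, 0.00487, in TTPΔARE), as was Mtor (0.65 ± 0.13, 0.00629, and 0.44 ± 0.11, 0.0282). Other called genes of these lists between the ages were Polr1b (0.42 ± 0.06, 0.00120), Mycn (0.81 ± 0.13, 0.00246), Tsc2 (0.49 ± 0.08, 0.00235) and Mrpl13 (-0.27 ± 0.07, 0.0261) in WT, and Sesn1 (0.52 ± 0.08, 0.00183), Eda2r (1.34 ± 0.30, 0.0176) and 5 mitochondrial ribosomal protein genes that were lower, led by Mrpl18 (-0.48 ± 0.10, 0.0115), in TTPΔARE mice. Of the genes named here, leaving out a library ended the call of Mrpl13 (5 of the 9 libraries), of Mtor in TTPΔARE mice (4 of 7), of Eda2r (M-TTPΔARE replicate 1 or 3) and of Mrpl18 (M-TTPΔARE replicate 1 or 2).

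The table held 305 ribosomal protein pseudogenes named as such, which can take up reads of their parent genes. Between 17 and 21 of them passed the limit in a comparison. Rps23-ps1 was called lower in WT MPP3 cells than in HSCs (-0.80 ± 0.24, edgeR adjusted p = 0.0351), and Rps25-ps1 (-0.60 ± 0.16, 0.0266) and Rpl14-ps1 (-0.44 ± 0.11, 0.0179) lower in middle-aged than in young WT HSCs. Leaving out a library ended the call of Rps23-ps1 for 7 of the 8 libraries (not Y-WT MPP3 replicate 2), of Rps25-ps1 for 4 of the 9 and of Rpl14-ps1 for 2 of the 9. Together the pseudogenes summed to 404.7 CPM in Y-TTPΔARE MPP3 replicate 4 and to between 135.6 and 244.4 CPM in the other libraries, and were highest in the library in which the ribosomal protein genes were highest.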

How the data were processed

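Bulk mRNA-seq of 24 libraries was used. The deposited values are raw counts per gene symbol. The authors used Trim Galore! with Cutadapt for trimming, STAR for alignment to mm10 (GENCODE M22 index) and featureCounts for counting. Whether strand was used, and how multimapping reads were treated, is not given in the sources used here. The paper and the labels name different SMARTer kits.

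For each comparison the counts of its groups were filtered with filterByExpr (minimum count 10, minimum total 15), scaled by TMM factors and tested over all genes with the quasi-likelihood F test of edgeR 4.0.16 in R 4.3.3, with Benjamini-Hochberg adjustment. Limits on adjusted p, fold change and logCPM follow the study, and interactions had no fold limit. In each genotype comparison fewer genes were called here than the paper reports. The paper does not say which edgeR test it used, and the reason for the gap was not tested. The SE is the log2 fold change divided by the square root of F. The share of genes called is over genes above the logCPM limit. CPM used TMM factors over 24 libraries, and logs for deviations 1 added to CPM. The fits used TMM factors of their own groups, so that CPM and overlap are on another scale than fold changes. Alternatives were DESeq2 1.42.0, RLE factors, library totals, TMM without the set, no filter, no logCPM limit, the likelihood ratio test, a replicate block and each library left out. Scaling by the summed counts of the set, and counts of non-overlapping genes without Y-TTPΔARE MPP3 replicate 4, were added after seeing the data. Scripts were tested on simulated data. In MPP3 cells and HSCs of TTPΔARE mice the deviations of equally numbered libraries correlated (0.252, 0.298, 0.218 and 0.214). In WT mice these values were 0.069, 0.177, 0.175 and 0.198. Differently numbered libraries were not compared in this way, so that a baseline is missing. The main fits did not pair libraries, and only the replicate block did.

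Transcript lengths, overlaps and shared words were computed from GENCODE M21 (GRCm38), which precedes the release that the authors counted with. The set and all lists were chosen with earlier results of these data known. Named were, in each comparison, called members, the 2 members with the largest and the 2 with the smallest log2 fold change, Rps4l and Rps27l, the paralogs, the 5 highest per kilobase, the anaemia genes, and up to 3 called genes per direction of the companion lists. Some genes are not reported here.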

Additional observations from a re-analysis of the deposited data

Results flagged for a closer look

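The share of counts in ribosomal protein genes and the CPM of 6 of them were checked in the 5 groups of 4 or 5 libraries, 35 groups of values in all, for 1 library far from the others by Dixon's criterion; chance alone marks about 1 in 20 such groups. Of these, 5 were marked, and 4 of the 5 lie in 1 library. The share was 5.87% in Y-TTPΔARE MPP3 replicate 4, against 2.80% to 3.10% in the other 3 libraries. In the same library Rpl37a was at 1099 CPM, Rps27 at 1159 CPM and Rps27l at 445.2 CPM, the highest of their group. Rps4l was at 13.6 CPM in M-WT HSC replicate 4, against 16.6 to 17.8 CPM in the other 4 libraries.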

How the results depend on the processing

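Of 1251 values recomputed under alternatives, 528 were counts or medians over the ribosomal protein genes, of which 502 stayed within their limits and 26 did not, and 723 belonged to single genes. In middle-aged HSCs 1 gene was called lower in TTPΔARE (Rps4l) with DESeq2, with no filter on low counts, with the likelihood ratio test and relative to the summed set (a scaling chosen after seeing the data), and 0 to 1 when a library was left out. Between MPP3 cells and HSCs of WT mice DESeq2 called 2 higher, and 0 to 14 were called higher and 0 to 1 lower without a library; 3 were called lower with library totals and relative to the set, and 0 with the replicate block. In TTPΔARE mice DESeq2 called 2 higher and the likelihood ratio test 1, 0 to 1 were called without a library, and 1 was called lower relative to the set without Y-TTPΔARE MPP3 replicate 4. Between the ages 3 were called higher in WT with no filter and 0 to 16 without a library, and 1 lower in TTPΔARE mice with no filter (Rps4l). The median interaction of cell type and genotype ran from -0.20 to 0.45 without a library. The cause of these changes was not tested. Shares of all genes are not given for DESeq2, library totals, no filter, the likelihood ratio test or the replicate block, so that counts called with these have no baseline.

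Signs changed as follows. Relative to the set, Rps27l had -0.032 between genotypes in young HSCs, Rps10 -0.16 and Rps4l -0.16 between genotypes in MPP3 cells, and Rpl4 -0.087 in the interaction with cell type. Rps27 between cell types in TTPΔARE mice had -0.16 with library totals, -0.087 with the replicate block, -0.33 relative to the set and -0.38 so without Y-TTPΔARE MPP3 replicate 4. Rps27l between the ages in WT had 0.03 with no filter. In the interaction with age Rps25 had 0.018 with DESeq2 and with RLE factors, 0.075 with library totals and 0.091 relative to the set. In the interaction with cell type Rpl3 had 0.054 with DESeq2 and with RLE factors, 0.049 with library totals and 0.022 with no filter. Without a library, Rps4l ran from -0.32 to 0.001 between genotypes in young HSCs, from -0.12 to 0.45 in MPP3 cells, from -0.485 to 0.067 between cell types in TTPΔARE mice, from -0.17 to 0.002 between the ages in WT and from -0.003 to 0.70 in the interaction with cell type. Rps27 ran from -0.41 to 0.15 between cell types in TTPΔARE mice, Rps27l from -0.12 to 0.063 between the ages in WT, Rps25 from -0.20 to 0.081 in the interaction with age, and Rpl3 from -0.25 to 0.18, Rpl4 from -0.21 to 0.25 and Rps12 from -0.16 to 0.64 in that with cell type.

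The replicate block changed 1 call, that of Rps4l between cell types in WT mice (-0.53, edgeR adjusted p = 0.0608), where equally numbered libraries did not all correlate over 0.1 and share only a number. It changed no other call of a ribosomal protein gene, also in TTPΔARE mice, where equally numbered libraries correlated. No paired fit was made for the interactions. Low counts limit Rpl10l, Rpl3l and Rpl39l, for which no change is reported.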
